A study of Saccharomyces cerevisiae with 12 samples.

Results

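The transcriptomes of 2 strains of budding yeast, Saccharomyces cerevisiae, were compared after both had been given ATP in the medium. Members of the comparison were chosen by sample: the 3 libraries labelled NTT1+ with 5 mM ATP and the 3 libraries labelled WT with 5 mM ATP, which are 6 of the 12 libraries of the study. Per the labels, the NTT1+ cultures carry PH-NTT1 integrated at a genomic locus in the BY29034 background with the QUEEN reporter, and the WT cultures are an empty-vector control with the source names BY29037, BY29038 and BY29039, each given to 1 culture. Both groups were grown in complete synthetic medium at 30 °C to mid-log phase and received ATP for 1 h. The labels give the reporter for the NTT1+ strain only, so the transporter and the reporter cannot be told apart in these libraries, and the 3 WT source names may or may not stand for separate isolates. The other 6 libraries are the same 2 strains without ATP, 3 NTT1+ and 3 WT. They were left out of the main test and used to read the same strain difference in separate libraries. They also entered the scaling of the CPM, the interaction, the ATP effects and an alternative fit of all 12 libraries. Reads of the construct itself were not examined, and each library's strain was taken from its label.

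NTT1 proteins are nucleotide transporters known from plastids and from intracellular bacteria, where they exchange ATP against ADP across a membrane. Yeast makes its own ATP by glycolysis and respiration and moves it out of mitochondria with ADP/ATP carriers such as Pet9, and its plasma membrane is not known for taking up intact ATP. Glucose enters through the Hxt family of transporters, whose members differ in affinity and are transcribed according to the glucose level through the Rgt1 repressor and the Snf3 and Rgt2 sensors. Ribosome production is a major use of ATP in growing yeast, and its genes, like those of sugar uptake and stress, are controlled by nutrient signalling through the TOR and protein kinase A pathways.

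The 6 libraries held 14845855 to 20714804 counts. The main test was edgeR's quasi-likelihood F-test on these 6 libraries, with Benjamini-Hochberg adjustment over 6083 genes and a threshold of 0.05, and levels are given as normalised CPM, which scales each library's counts to a common total. On the first principal component of log2 CPM, which held 32.1% of the variance, NTT1 replicates 1 and 3 lay at 9.96 and 9.05 and WT replicates 1 to 3 at -7.81, -6.77 and -3.10. NTT1 replicate 2 lay at -1.33, between the 2 groups, and at 10.6 on the second component (21.6%). WT replicate 3 lay at the other end of that component, at -8.59, and the remaining libraries lay between -2.97 and 2.41. Of 1093 genes that were lower in NTT1 replicates 1 and 3 than in every WT library, 483 (44.2%) were also lower in NTT1 replicate 2. Of 1070 genes that were higher in those replicates, 501 (46.8%) were also higher in replicate 2. Results are therefore given with this library and, where it matters, without it. The library was singled out from these same values, and leaving out the NTT1 library nearest to WT favours a separation of the strains. Calls made without it are therefore no independent support for those made with it.

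With ATP, 3 of 6083 genes differed between the strains, or 0.0493% of those tested. SLM1, an effector of the TORC2 kinase at the plasma membrane, rose in NTT1 cells (0.0164% of the genes tested). YCR013C and YBL113C, for which the sources used here give no gene name, fell (0.0329%). At an unadjusted p under 0.05 stood 615 genes (10.1%), of which 274 (4.50%) were higher and 341 (5.61%) lower. The 3 NTT1 values lay above all 3 WT values in 501 genes (8.24%) and below all of them in 483 (7.94%). The median log2 fold change of all genes was 0.0011. Without NTT1 replicate 2, 57 of 6116 genes passed (0.932%), 12 higher (0.196%) and 45 lower (0.736%), and at an unadjusted p under 0.05 449 genes (7.34%) were higher and 614 (10.0%) lower. The 57 genes include 3 hexose transporters, 2 amino acid permeases and 8 cytosolic ribosomal proteins, and 27 of the 57 belong to any of the gene lists. The shares of all genes given here are the ones to set beside the counts of list members below.

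**Figure D1:**
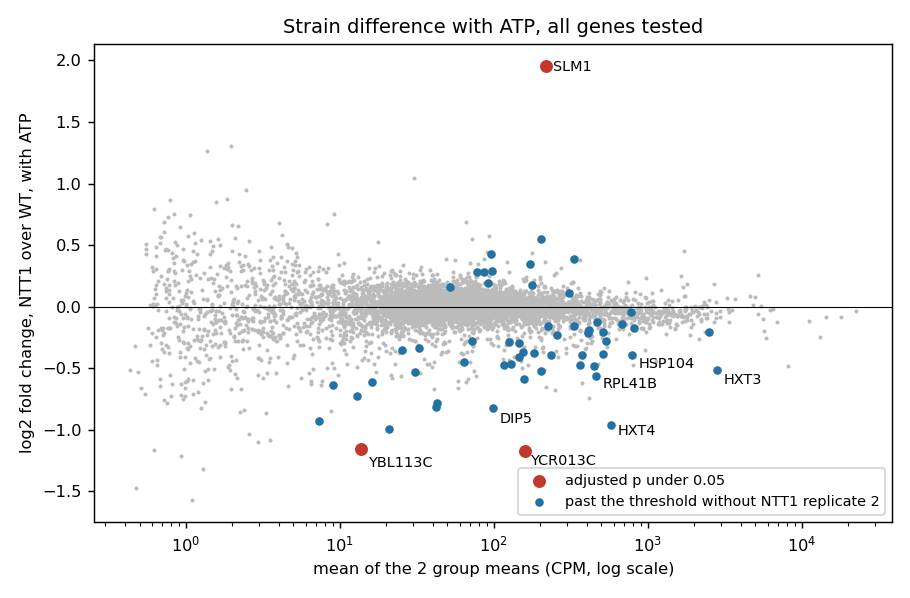
Log2 fold change of NTT1 with ATP over WT with ATP (vertical axis) against the mean level of the 2 groups in CPM (horizontal log axis), 1 point per gene tested in the 6 libraries. SLM1 stands alone at 1.96, YCR013C at -1.17 and YBL113C at -1.15 are the genes that fell, and most of the genes that pass without NTT1 replicate 2 lie below 0.

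SLM1 (YIL105C, R64 chromosome IX:167581-169641, minus strand, protein coding) encodes a pleckstrin-homology-domain protein that binds phosphatidylinositol 4,5-bisphosphate and helps TORC2 to reach its kinase substrate Ypk1. The stretch from 400 to 101 bases before its start codon is shown because this gene carries the only rise past the threshold (RefSeq R64, IX:169742-170041, minus strand, no capitals, since it holds no match to the Rgt1 motif described with the hexose transporters). Its first part, IX:169982-170041, lies within the neighbouring gene SHQ1, which is on the same strand.
SLM1 upstream: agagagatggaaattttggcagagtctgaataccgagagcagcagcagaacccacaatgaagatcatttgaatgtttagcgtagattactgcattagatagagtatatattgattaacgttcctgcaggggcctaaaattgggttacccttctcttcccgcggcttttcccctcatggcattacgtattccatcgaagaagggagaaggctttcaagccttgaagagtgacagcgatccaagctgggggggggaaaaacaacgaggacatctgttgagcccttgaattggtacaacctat
SLM1 stood at 364, 323 and 359 CPM in NTT1 with ATP, against 85.5, 93.3 and 90.3 CPM in WT with ATP. All 3 NTT1 values lay far above the WT values, and the replicates of each strain differed little. The mean was 349 ± 22.6 CPM in NTT1 and 89.7 ± 3.95 CPM in WT (SD, n = 3 each), a log2 fold change of 1.96 (SE 0.064, edgeR adjusted p = 4.35e-06). SLM1 passed without each of the 6 libraries in turn, with log2 fold changes of 1.92 to 2.01.

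In the 6 libraries without ATP, SLM1 was again higher in the NTT1 strain, at 369, 331 and 321 CPM in NTT1 against 137, 132 and 99.5 CPM in WT. The groups did not overlap, and the log2 fold change was 1.47 (edgeR unadjusted p = 1.76e-05, adjusted p = 0.108). The strain difference was larger with ATP by 0.49 on the log2 scale, which did not pass the interaction test (unadjusted p = 0.00979, edgeR adjusted p = 0.716). The effect of ATP on SLM1 was 0.04 in NTT1 (edgeR adjusted p = 0.885) and -0.46 in WT (edgeR adjusted p = 0.0302), and these contrasts use the same libraries as the strain comparison. Of 6157 genes, 275 (4.47%) passed the contrast in NTT1 and 784 (12.7%) that in WT. Every one of the 2012 windows of 50 bases in SLM1 occurs once in the R64 genome, so no stretch of that length has a second native copy. The labels do not say what PH stands for in the name of the construct, and the sequence of the construct is not given in the sources used here. Whether part of these reads comes from the integrated construct was not tested, because a gene total does not separate them from the native transcript.

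The genes next to SLM1 did not pass. The log2 fold change was 0.07 for SHQ1 (YIL104C, a factor for box H/ACA small nucleolar RNPs, edgeR adjusted p = 0.703), 0.09 for MOB1 (YIL106W, a mitotic exit kinase subunit, adjusted p = 0.704) and 0.01 for PFK26 (YIL107C, a 6-phosphofructo-2-kinase, adjusted p = 0.973). YIL105W-A had 0 counts. SLM2, the paralog of SLM1, stood at 44.8, 47.2 and 47.6 CPM in NTT1 and at 44.5, 47.2 and 44.8 CPM in WT (log2 fold change 0.03, edgeR adjusted p = 0.88).

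In the list of TORC2, its Slm effectors and the eisosome, the membrane furrow that holds Slm1, all 24 members were tested and SLM1 alone passed. The median log2 fold change was 0.02, and DESeq2 also called YPK2. Ranges that did not overlap were higher in 4 members and lower in 1, against 8.24% and 7.94% of all genes. YPK2, the less abundant of the Ypk kinases that TORC2 phosphorylates, stood at 36.1, 36.9 and 30.4 CPM in NTT1 and at 48.7, 52.1 and 40.3 CPM in WT (log2 fold change -0.45, edgeR adjusted p = 0.212). Each NTT1 value of YPK2 lay below each WT value. EIS1, an eisosome protein, had a log2 fold change of -0.29, and PIL1 and SEG1, a core component and a regulator of eisosomes, had 0.12 each. EIS1 fell as well without NTT1 replicate 2 (log2 fold change -0.41, edgeR adjusted p = 0.0474). In the list of phosphoinositide 4,5-bisphosphate synthesis and turnover, 0 of 16 members passed by edgeR or DESeq2. Only 1 member had an unadjusted p under 0.05, against 10.1% of all genes. That member was INP53, a polyphosphatidylinositol phosphatase, with a log2 fold change of -0.21.

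YCR013C fell to 93.0, 101.8 and 99.5 CPM in NTT1 with ATP, against 234, 214 and 213 CPM in WT with ATP. The groups were well apart, with means of 98.1 ± 4.58 CPM in NTT1 and 220.5 ± 11.8 CPM in WT (SD, n = 3 each). The log2 fold change was -1.17 (SE 0.058, edgeR adjusted p = 7.18e-05), and the call held without each library in turn, at -1.20 to -1.12. The RefSeq gene table of R64 has no entry for this identifier. Its number follows that of PGK1 (YCR012W), the phosphoglycerate kinase of glycolysis, and PGK1 stood at 5768, 4919 and 5742 CPM in NTT1 and at 5424, 5533 and 5414 CPM in WT (log2 fold change 0.0047, edgeR adjusted p = 0.993). PGK1 overlapped between the strains. Whether the counting used strand is not given in the sources used here, so reads of YCR013C and of any gene that overlaps it cannot be told apart.

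Without ATP, YCR013C spread more in the NTT1 strain, at 234, 157 and 133 CPM in NTT1 against 216, 197 and 182 CPM in WT. Those groups overlapped (log2 fold change -0.18, edgeR unadjusted p = 0.404). The strain difference with ATP minus that without was -0.98 (unadjusted p = 0.00131, edgeR adjusted p = 0.587). The effect of ATP was -0.83 in NTT1 (edgeR adjusted p = 0.0190) and 0.15 in WT (edgeR adjusted p = 0.580).

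**Figure D2:**
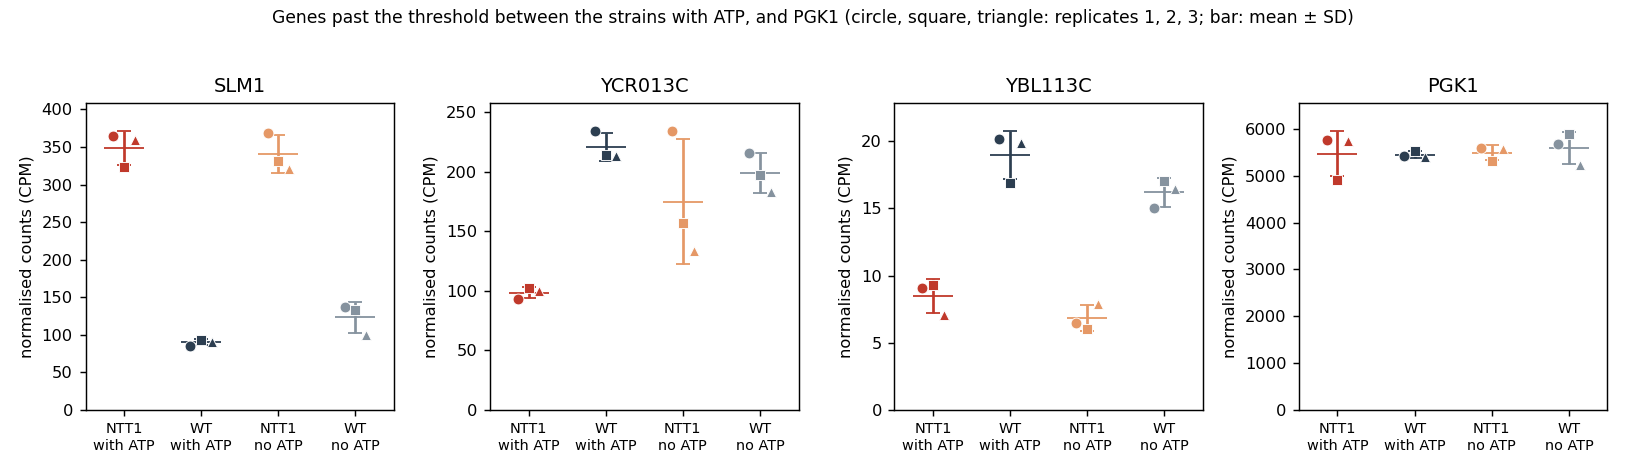
Normalised counts in CPM for SLM1, YCR013C, YBL113C and, as the gene numbered next to YCR013C, PGK1, in NTT1 and WT with ATP and in NTT1 and WT without ATP. Symbols are single libraries and bars are the mean ± SD of 3, and the strains separate with and without ATP for SLM1 and YBL113C but only with ATP for YCR013C.

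YBL113C lies at the left end of chromosome II (R64 II:280-2658, minus strand) and is annotated as protein coding. It belongs to the repeated sequence of chromosome ends: 18.5% of its windows of 50 bases occur once in R64, and its median window has 12 copies. A read lying wholly within the window with the most copies (31, II:1947-1996) cannot be placed on 1 position of the genome. That window and the first window found once (II:2011-2060) are shown as read on its strand.
YBL113C repeated window: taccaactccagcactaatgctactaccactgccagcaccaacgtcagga
YBL113C window found once: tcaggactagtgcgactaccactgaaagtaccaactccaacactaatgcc
It stood at 9.09, 9.28 and 7.03 CPM in NTT1 with ATP, against 20.2, 16.9 and 19.9 CPM in WT with ATP. The groups did not overlap, and the log2 fold change was -1.15 (SE 0.123, edgeR adjusted p = 0.0215). The call was lost without NTT1 replicate 1 (edgeR adjusted p = 0.0649), NTT1 replicate 3 (0.0619), WT replicate 1 (0.0974) or WT replicate 2 (0.0504). The log2 fold change then lay between -1.23 and -1.04. Without ATP it was 6.50, 6.04 and 7.91 CPM in NTT1 against 15.03, 17.1 and 16.5 CPM in WT (log2 fold change -1.24, edgeR unadjusted p = 5.52e-05, adjusted p = 0.169).

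The Y' element helicases are encoded in subtelomeric repeats. Of 8 listed genes 7 were tested and 0 passed by edgeR, the median log2 fold change being 0.06. At an unadjusted p under 0.05 lay 1 member, against 10.1% of all genes. DESeq2 called that member, YRF1-7, which stood at 10.6, 9.95 and 9.64 CPM in NTT1 and at 5.57, 6.64 and 6.74 CPM in WT (log2 fold change 0.67, edgeR adjusted p = 0.0812). No window of 50 bases in YRF1-7 occurs once in the genome, and without ATP its log2 fold change was -0.53. Over the 197 genes within 20000 bases of a chromosome end, the median log2 fold change was 0.03. Ranges that did not overlap were higher in 23 of these genes and lower in 12, against 8.24% and 7.94% of all genes.

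Among genes that did not pass the main test, the smallest p-values on the low side belonged to YAL037C_B at -0.996 (edgeR adjusted p = 0.053), LAF1 at -0.46 (0.053), YMR294W_A at -0.61 (0.0557) and RUF5_2 at -0.81 (0.0557), each on the log2 scale. LAF1 (YMR102C) stood at 102.5, 114 and 109.8 CPM in NTT1 and at 154, 156 and 141 CPM in WT, and the other 3 identifiers have no entry in the gene table. On the high side they belonged to FAA3, a long-chain acyl-CoA synthetase, at 0.29 (edgeR adjusted p = 0.0615), and to YRF1-7. RDN5_1, an identifier with no entry in the gene table, followed at 0.75 (0.108), with BAR1, the protease that degrades alpha factor, at 0.28 (0.108) and MET13, a methylenetetrahydrofolate reductase, at 0.29 (0.119). FAA3 was tight, at 94.1, 93.7 and 96.2 CPM in NTT1 and 79.5, 77.7 and 75.7 CPM in WT. Without NTT1 replicate 2, YAL037C_B, LAF1, YMR294W_A and RUF5_2 fell, and FAA3 and MET13 rose, at edgeR adjusted p-values of 0.0113 to 0.0387. On all 6 libraries DESeq2 called each gene named in this paragraph, and a fit with the replicate number as a block called only those on the low side. In the fit of all 12 libraries YMR294W_A passed (edgeR adjusted p = 0.028) and the others did not.

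Among the hexose transporters, HXT4, HXT3, HXT7 and HXT6 had lower values in every NTT1 library than in every WT library, and none of them passed edgeR's threshold on all 6 libraries. HXT4 and HXT3 had the smallest p-values of the family, and their upstream stretches (400 to 101 bases before the start codon, RefSeq R64, HXT4 at VIII:288912-289211 and HXT3 at IV:1164761-1165060, both on the minus strand) are shown because the Rgt1 repressor acts on promoters of this family. Capitals mark CGGANNA on either strand (TNNTCCG on the other), the core of the Rgt1 site.
HXT4 upstream: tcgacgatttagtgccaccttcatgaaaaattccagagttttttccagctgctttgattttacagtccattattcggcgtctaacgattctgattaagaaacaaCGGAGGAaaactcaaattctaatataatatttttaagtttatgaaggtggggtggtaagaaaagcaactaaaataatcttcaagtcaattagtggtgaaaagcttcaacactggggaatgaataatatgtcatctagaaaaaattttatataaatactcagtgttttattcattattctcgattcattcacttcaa
HXT3 upstream: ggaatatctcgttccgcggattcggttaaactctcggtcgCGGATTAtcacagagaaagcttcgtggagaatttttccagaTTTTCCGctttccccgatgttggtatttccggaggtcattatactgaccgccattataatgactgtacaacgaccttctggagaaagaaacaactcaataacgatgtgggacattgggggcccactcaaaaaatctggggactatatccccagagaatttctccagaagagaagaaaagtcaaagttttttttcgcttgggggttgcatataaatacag
The match occurs once in the HXT4 window, 2 times in the HXT3 window and in 1773 of 5988 windows of the same length before protein-coding genes (29.6%), so the letters alone are common. HXT4 stood at 326, 446 and 402 CPM in NTT1 with ATP, against 699, 903 and 683 CPM in WT with ATP. Each NTT1 value lay well below each WT value (log2 fold change -0.96, SE 0.137, edgeR adjusted p = 0.0557). HXT3, a low-affinity carrier of glucose-grown cells, stood at 2147, 2491 and 2316 CPM in NTT1, against 3296, 3546 and 3066 CPM in WT (log2 fold change -0.51, SE 0.079, edgeR adjusted p = 0.0615). Without NTT1 replicate 2 both fell, HXT4 by 1.07 (edgeR adjusted p = 0.0225) and HXT3 by 0.57 (0.0175) on the log2 scale. DESeq2 called both on all 6 libraries, at adjusted p-values of 4.83e-11 for HXT4 and 1.4e-07 for HXT3. In the fit of all 12 libraries HXT4 had an edgeR adjusted p of 0.513.

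HXT6 and HXT7, the high-affinity carriers, are neighbours on chromosome IV with coding sequences that differ at 3 of 1713 positions. The pair of windows around the difference at position 1666, counted from the first base of the start codon, shows how little separates their reads (R64 IV:1159635-1159675 for HXT6 and IV:1154243-1154283 for HXT7, minus strand, capitals mark the bases that differ).
HXT6: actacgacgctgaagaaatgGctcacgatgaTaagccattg
HXT7: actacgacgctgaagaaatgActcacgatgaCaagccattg
Their levels are therefore uncertain as to which gene they belong to, and 4.93% of the windows of 50 bases in each occur once in the genome. HXT7 was listed at 156, 230.1 and 188 CPM in NTT1, against 268, 376 and 270 CPM in WT (log2 fold change -0.67, edgeR adjusted p = 0.232). HXT6 was listed at 142, 199 and 161 CPM in NTT1, against 215, 281 and 224 CPM in WT (log2 fold change -0.52, edgeR adjusted p = 0.241). Both genes had ranges that did not overlap. Without NTT1 replicate 2, HXT6 fell (edgeR adjusted p = 0.0448) and HXT7 did not pass (0.0571).

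HXT1, the low-affinity carrier of high glucose, and HXT2 overlapped between the strains. HXT1 stood at 1246, 1636 and 1442 CPM in NTT1 and at 1576, 1611 and 1584 CPM in WT (log2 fold change -0.14). HXT2, a high-affinity carrier, stood at 175, 632 and 283 CPM in NTT1 and at 350.3, 602 and 388 CPM in WT, and NTT1 replicate 2 was the highest of the 6. Its log2 fold change was -0.30 (edgeR adjusted p = 0.852) with that library and -0.97 (adjusted p = 0.115) without it. MTH1, a co-repressor with Rgt1, likewise stood at 67.7, 156 and 93.7 CPM in NTT1 and at 109.1, 190.3 and 130.2 CPM in WT. The sensors SNF3 and RGT2 had log2 fold changes of -0.23 and -0.06.

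Of the 19 listed hexose transporters and sensors 17 were tested. None passed edgeR's test over all genes, and DESeq2 called HXT3, HXT4 and HXT6 lower. At an unadjusted p under 0.05, 4 were lower and 1 higher, against 5.61% lower and 4.50% higher over all genes. Of the 17, 11 had log2 fold changes below 0 and 6 above, against 3005 below and 3078 above over all genes. The member that was higher was HXT11, at 5.18, 6.49 and 6.30 CPM in NTT1 and at 4.91, 4.21 and 4.52 CPM in WT (log2 fold change 0.40, unadjusted p = 0.0172, edgeR adjusted p = 0.346). The SD of the list's mean log2 CPM between replicates of a group was 0.14. The median log2 fold change was -0.11, against 0.0011 for all genes. It was -0.24 without NTT1 replicate 2, with 6 lower and 0 higher at an unadjusted p under 0.05. Over all genes 10.0% were lower and 7.34% higher in that setting. In the libraries without ATP the log2 fold changes were also below 0 for HXT4 (-0.61, edgeR unadjusted p = 0.0878), HXT3 (-0.24), HXT6 (-0.57) and HXT7 (-0.51). None of these genes passed by edgeR, and the strains overlapped for each of them. Untreated WT replicate 3 lay below every untreated NTT1 library for HXT4 (825 CPM against 1105, 921 and 928 CPM), HXT6 and HXT7. For HXT4 the strain difference with ATP minus that without was -0.35 (unadjusted p = 0.367).

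**Figure D3:**
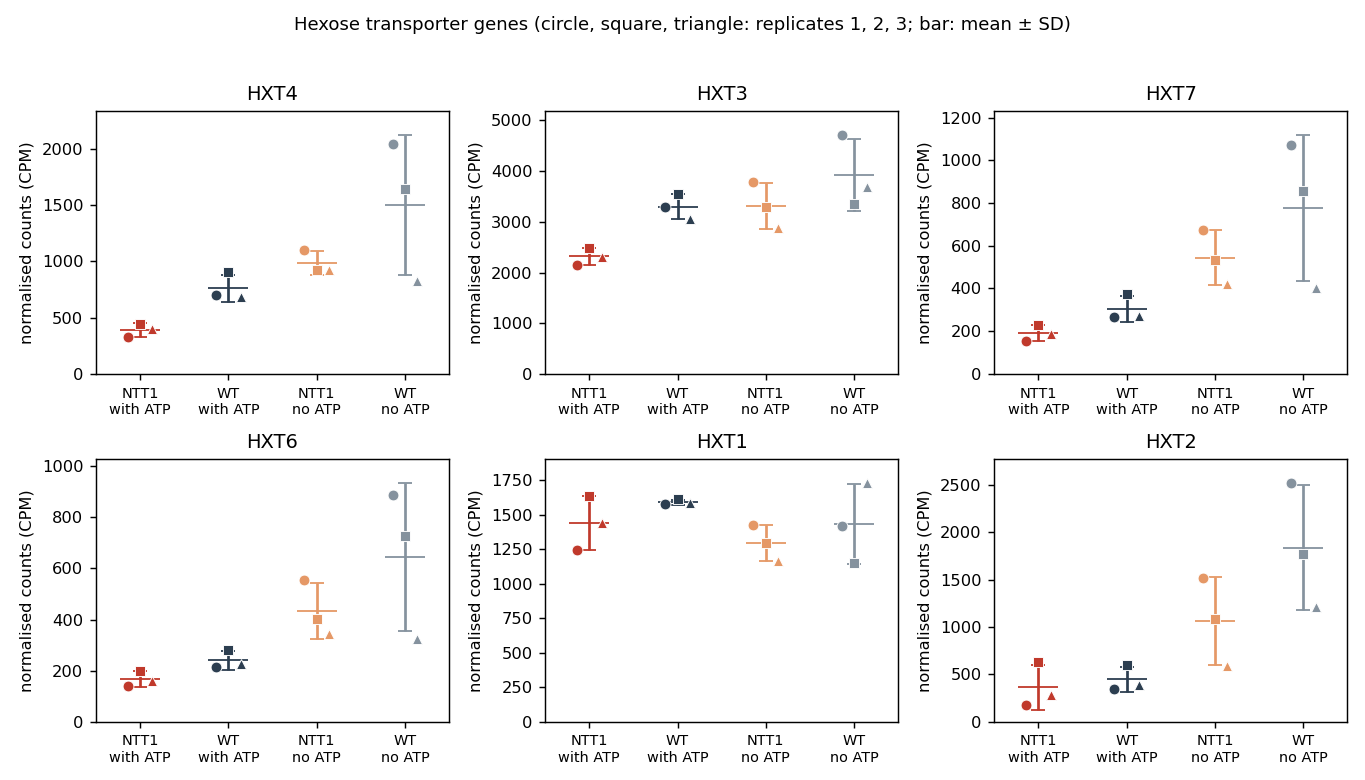
Normalised counts in CPM of hexose transporter genes in NTT1 and WT with ATP and in NTT1 and WT without ATP, 1 symbol per library with the mean ± SD of 3. With ATP, HXT3, HXT4, HXT6 and HXT7 lie lower in all 3 NTT1 libraries than in all 3 WT libraries, whereas HXT1 and HXT2 overlap.

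Of the amino acid permeases of the plasma membrane all 19 were tested and 0 passed by edgeR. At an unadjusted p under 0.05, 6 were lower and 0 higher, against 5.61% lower and 4.50% higher over all genes. Ranges that did not overlap were lower in 6, against 7.94% of all genes. The median log2 fold change was -0.08, with 16 members below 0 and 3 above, against 3005 below and 3078 above over all genes. The SD of the list's mean log2 CPM between replicates of a group was 0.024. SAM3, the high-affinity permease for S-adenosylmethionine, stood at 165, 157 and 152 CPM in NTT1 and at 214, 196 and 206 CPM in WT (log2 fold change -0.38, edgeR adjusted p = 0.0557). DIP5, the permease for glutamate and aspartate, stood at 74.4, 62.5 and 78.2 CPM in NTT1 and at 146, 129 and 105 CPM in WT (log2 fold change -0.82, edgeR adjusted p = 0.0615). LYP1, the lysine permease, had a log2 fold change of -0.18 (edgeR adjusted p = 0.232). SAM3 and DIP5 fell without NTT1 replicate 2, at edgeR adjusted p-values of 0.0376 and 0.0406, and DESeq2 called both on all 6 libraries.

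Of the cytosolic ribosomal protein genes, 121 had log2 fold changes below 0 and 15 above, against 3005 below and 3078 above over all genes. Of the 136 ribosomal genes tested 0 passed by edgeR. The median log2 fold change was -0.07, and the SD of the list's mean log2 CPM between replicates of a group was 0.080. At an unadjusted p under 0.05, 17 were lower and 0 higher, against 5.61% lower and 4.50% higher over all genes. DESeq2 called 6 of them lower. The count moved with NTT1 replicate 2: without it 102 were lower and 1 higher at an unadjusted p under 0.05, against 10.0% lower and 7.34% higher over all genes, 8 fell past edgeR's threshold and the median was -0.14. RPL41B, which encodes the smallest protein of the large subunit, stood at 345, 408 and 372 CPM in NTT1 and at 616, 508 and 537 CPM in WT (log2 fold change -0.56, edgeR adjusted p = 0.0615). Only 31.0% of its 29 windows of 50 bases occur once in the genome, and RPL41A has a near-identical coding sequence. RPL37B, RPS28A and RPS30B, also genes of small ribosomal proteins, had log2 fold changes of -0.39, -0.28 and -0.39, and each lay below WT in all 3 libraries. Without ATP their values ran the other way, at 0.13, 0.16 and 0.22.

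The difference ran with coding length. Among 5746 protein-coding genes, those of up to 300 bases (245 genes) had a median log2 fold change of -0.10, those of over 300 and up to 600 bases (824) -0.03 and those over 4000 bases (237) 0.04. Ranges that did not overlap were lower in 23.7% of the shortest genes and higher in 2.04% of them. Ribosomal protein genes followed this order, with medians of -0.22 for 17 genes of up to 300 bases, -0.08 for 89 genes of over 300 and up to 600 bases and -0.04 for 30 longer genes. In the libraries without ATP the order was reversed, at 0.11 for the shortest and -0.10 for the longest genes. Read length, fragment size and RNA integrity are not given in the sources used here, so their part in the short genes' values was not tested. HXT3, HXT4, SAM3, DIP5 and HSP104 all have coding lengths over 600 bases, and whether coding length bears on their values was not tested.

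**Figure D4:**
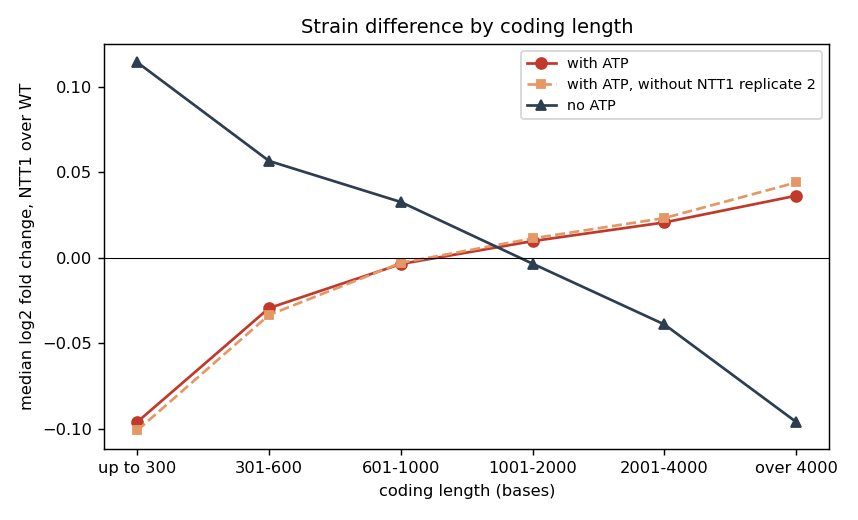
Median log2 fold change of NTT1 over WT by bin of coding length, with ATP (all 6 libraries, and without NTT1 replicate 2) and without ATP. With ATP and all 6 libraries the medians run from -0.10 in the shortest bin to 0.04 in the longest, and without ATP they run from 0.11 to -0.10.

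Of 13 genes of de novo purine synthesis, 0 passed by edgeR or DESeq2. The median log2 fold change was 0.03, and -0.03 without NTT1 replicate 2. At an unadjusted p under 0.05, 1 was higher and 1 lower, against 4.50% and 5.61% of all genes. ADE17, which closes the purine ring to IMP, stood at 1765, 1934 and 1639 CPM in NTT1 and at 1566, 1517 and 1418 CPM in WT (log2 fold change 0.25, edgeR adjusted p = 0.291). ADE4, the first enzyme of the pathway, had a log2 fold change of -0.25 (edgeR adjusted p = 0.368). Without ATP, ADE17 lay at -0.22 and ADE4 at -0.23, and the interaction of ADE17 was 0.48 (unadjusted p = 0.00191, not past the adjusted threshold). In purine salvage and adenylate interconversion, 0 of 20 passed by edgeR or DESeq2, with 1 at an unadjusted p under 0.05. That gene was SDT1, a pyrimidine nucleotidase, at 0.22.

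In the guanine nucleotide branch, 0 of 7 genes passed by edgeR, and DESeq2 called IMD2 lower. At an unadjusted p under 0.05, 2 were lower, against 5.61% of all genes. IMD2, an inducible IMP dehydrogenase, stood at 29.4, 26.3 and 25.3 CPM in NTT1 and at 44.1, 39.9 and 33.3 CPM in WT (log2 fold change -0.53, edgeR adjusted p = 0.13), without overlap. IMD3 and IMD4, its constitutive paralogs, had log2 fold changes of -0.18 and -0.09 and share the direction, and all 3 lay below WT in every NTT1 library. IMD2, IMD3 and IMD4 are similar in sequence, and how the authors' counting shared reads among them was not tested.

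Of the mitochondrial carriers of nucleotides and phosphate, 0 of 15 passed by edgeR, and DESeq2 called PIC2 lower. At an unadjusted p under 0.05, 3 were lower and 0 higher, against 5.61% lower and 4.50% higher over all genes. The ADP/ATP carriers had log2 fold changes of -0.00051 for PET9, the major form, -0.17 for AAC1 and -0.0024 for AAC3, the anaerobic form. PET9 stood at 1011, 811 and 1040.1 CPM in NTT1 and at 874, 1024 and 965 CPM in WT, which overlapped. PIC2, a mitochondrial phosphate and copper carrier, stood at 252, 193 and 226 CPM in NTT1 and at 290, 309 and 292 CPM in WT (log2 fold change -0.41, edgeR adjusted p = 0.175). POR2, a paralog of the outer-membrane porin, had a log2 fold change of -0.28 (edgeR adjusted p = 0.168). No gene of the ATP synthase (16) or of the respiratory chain (27) passed by edgeR or DESeq2, with 3 lower and 0 higher in each at an unadjusted p under 0.05. The direction turned without NTT1 replicate 2. Over all genes 7.34% were higher and 10.0% lower at an unadjusted p under 0.05 in that setting. The respiratory chain then had 7 higher and 3 lower and a median log2 fold change of 0.09, against -0.02 with all 6 libraries, and the ATP synthase had 2 higher and 1 lower and a median of 0.07, against -0.03. Their members with the smallest p were the small subunits ATP18 (-0.19) and QCR9 (-0.26), at 0.37 and 0.28 without ATP.

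PMA1, the plasma membrane proton ATPase and a main consumer of ATP, stood at 11072, 10426 and 10503 CPM in NTT1 and at 11394, 11662 and 11623 CPM in WT (log2 fold change -0.12, edgeR adjusted p = 0.603). Each NTT1 value lay below each WT value. Of 17 subunits and assembly factors of the vacuolar proton ATPase 0 passed by edgeR. At an unadjusted p under 0.05, 3 were lower, against 5.61% of all genes, and DESeq2 called VMA11, a subunit of the membrane ring. VMA11 had a log2 fold change of -0.22 (edgeR adjusted p = 0.18). Of the 17, 11 lay below 0 and 6 above, against 3005 below and 3078 above over all genes. VMA9, another subunit, fell without NTT1 replicate 2 (-0.44, edgeR adjusted p = 0.0436). In the list of proton, sodium and potassium transport, 0 of 13 passed by edgeR or DESeq2. At an unadjusted p under 0.05, 3 were lower, against 5.61% of all genes. PMP3, a small plasma membrane protein, had the smallest p (log2 fold change -0.21).

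In central carbon metabolism, 0 of 25 genes of glycolysis and fermentation passed by edgeR or DESeq2. At an unadjusted p under 0.05, 2 were lower, against 5.61% of all genes. PDC1, the main pyruvate decarboxylase, stood at 7347, 6673 and 6358 CPM in NTT1 and at 11189, 10543 and 6653 CPM in WT, where WT replicate 3 lay within the NTT1 range of values (log2 fold change -0.48, edgeR adjusted p = 0.378). In the tricarboxylic acid cycle 0 of 15 passed by edgeR or DESeq2, with 1 lower at an unadjusted p under 0.05. Leaving out NTT1 replicate 2 gave 7 higher and 2 lower at an unadjusted p under 0.05, against 7.34% and 10.0% of all genes. In the list of the Snf1 kinase and glucose repression, 0 of 22 passed by edgeR or DESeq2 and 0 had an unadjusted p under 0.05. NRG1, a repressor under Snf1, had the smallest p there (log2 fold change -0.28), and fell without NTT1 replicate 2 (-0.45, edgeR adjusted p = 0.0440).

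Of 44 genes of the general stress response 0 passed by edgeR, and DESeq2 called HSP104, HSP42 and SPI1 lower. At an unadjusted p under 0.05, 9 were lower and 0 higher, against 5.61% lower and 4.50% higher over all genes. HSP104, the disaggregase, stood at 724, 615 and 719 CPM in NTT1 and at 914, 909 and 881 CPM in WT (log2 fold change -0.40, edgeR adjusted p = 0.108). HSP42, a small heat shock protein, stood at 195, 181 and 179 CPM in NTT1 and at 243, 243 and 209.6 CPM in WT (log2 fold change -0.33, edgeR adjusted p = 0.151). SPI1, a cell wall protein of the stress response, stood at 304, 258 and 331 CPM in NTT1 and at 386, 470 and 510.3 CPM in WT (log2 fold change -0.62, edgeR adjusted p = 0.119). All 3 lay below WT in every library. The one-sided count was lost without NTT1 replicate 2, with 7 lower and 6 higher, and the median of the list was 0.03, against -0.06 with it. Over all genes 10.0% were lower and 7.34% higher at an unadjusted p under 0.05 in that setting. HSP104 fell in that setting (-0.32, edgeR adjusted p = 0.0208). Chaperones of the cytosol and mitochondria included HSP104 and had 7 of 29 lower and 1 higher at an unadjusted p under 0.05, and 6 lower and 5 higher without NTT1 replicate 2.

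Of 23 genes of protein folding in the endoplasmic reticulum 0 passed by edgeR, and the median log2 fold change was 0.06. Ranges that did not overlap were higher in 5 and lower in 1, against 8.24% and 7.94% of all genes. At an unadjusted p under 0.05, 3 were higher and 1 lower, against 4.50% and 5.61% of all genes. DESeq2 called PDI1. PDI1, the protein disulfide isomerase, stood at 1081, 1073 and 1005 CPM in NTT1 and at 906, 912 and 863 CPM in WT (log2 fold change 0.24, edgeR adjusted p = 0.18). JEM1, a J-domain co-chaperone of the lumen, was tight at 71.8, 72.0 and 71.9 CPM in NTT1 against 62.7, 61.3 and 65.7 CPM in WT (log2 fold change 0.19, edgeR adjusted p = 0.235). Without ATP, PDI1 lay at -0.18 and JEM1 at 0.23.

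In cAMP and protein kinase A signalling 0 of 20 passed by edgeR or DESeq2, and MSN4, a stress activator that protein kinase A restrains, had the smallest p (log2 fold change -0.21). In autophagy 0 of 36 passed by edgeR or DESeq2. At an unadjusted p under 0.05, 6 were higher and 1 lower, against 4.50% higher and 5.61% lower over all genes. Without NTT1 replicate 2, 7 were higher and 0 lower, against 7.34% and 10.0% of all genes. ATG17, a scaffold of the phagophore assembly site, had a log2 fold change of 0.25, and ATG19, the receptor of the cytoplasm-to-vacuole pathway, rose without NTT1 replicate 2 (0.27, edgeR adjusted p = 0.0470). Among 30 genes tied to replicative lifespan, 0 passed by edgeR, 3 were higher and 2 lower at an unadjusted p under 0.05, and DESeq2 called HSP104 and HAP4, the activator of respiratory genes, lower. UBR2, a ubiquitin ligase that degrades the proteasome activator Rpn4, stood at 35.7, 36.7 and 39.8 CPM in NTT1 and at 31.7, 28.5 and 29.4 CPM in WT (log2 fold change 0.32, edgeR adjusted p = 0.151). Without ATP it lay at -0.29, and the difference between the 2 strain effects was 0.62 (unadjusted p = 0.000102, edgeR adjusted p = 0.388). SIR2, the histone deacetylase of silencing, lay at 0.17.

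Of 31 iron regulon genes tested 0 passed by edgeR or DESeq2, 2 were higher at an unadjusted p under 0.05, a share near the 4.50% of all genes, and the median log2 fold change was 0.07. Leaving out NTT1 replicate 2 gave 14 higher and 0 lower, against 7.34% and 10.0% of all genes, with a median of 0.16. Without ATP the median was -0.04. ISU1, the scaffold for iron-sulfur clusters, stood at 124, 126 and 124 CPM in NTT1 and at 108, 106 and 110.4 CPM in WT (log2 fold change 0.21, edgeR adjusted p = 0.127). ARN1, a siderophore transporter, stood at 145, 66.7 and 120.1 CPM in NTT1 and at 70.1, 91.7 and 84.4 CPM in WT. NTT1 replicate 2 was the lowest of the 6 for ARN1, which rose without it (0.69, edgeR adjusted p = 0.0405). Of 14 zinc regulon genes 0 passed by edgeR or DESeq2, with a median of 0.13 and 1 higher at an unadjusted p under 0.05, IZH1, a membrane protein of zinc homeostasis. Of the zinc genes 7 were higher and 1 lower without NTT1 replicate 2, with a median of 0.14, and without ATP the median was 0.23. In the phosphate regulon 0 of 23 passed by edgeR or DESeq2, 0 had an unadjusted p under 0.05, and PHO84, the high-affinity phosphate transporter, lay at -0.13.

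In cell cycle genes, 0 of 23 passed by edgeR. At an unadjusted p under 0.05, 3 were higher and 3 lower, against 4.50% and 5.61% of all genes. DESeq2 called CLB1, a mitotic cyclin. CLB1 stood at 220.0, 166 and 187 CPM in NTT1 and at 155, 148 and 146 CPM in WT (log2 fold change 0.35, edgeR adjusted p = 0.241), with no overlap. It rose without NTT1 replicate 2 (0.44, edgeR adjusted p = 0.0401) and was also higher without ATP (0.59, unadjusted p = 9.83e-05), where it did not pass (edgeR adjusted p = 0.200). The proteasome (34 tested), ergosterol synthesis (25), histones (10), the cell wall (39), mitochondrial ribosomal proteins (66), ribosome biogenesis (86), Gcn4 targets of amino acid synthesis (39), sulfate assimilation (26) and calcium and magnesium transport (17) had 0 members past edgeR's threshold. At an unadjusted p under 0.05 they had 1, 1, 0, 4, 3, 4, 5, 1 and 3 members, against 10.1% of all genes. DESeq2 called 1 gene among them, MUP3, a low-affinity methionine permease (log2 fold change -0.53). With NTT1 replicate 2 left out, ribosome biogenesis had 31 lower and 0 higher and the Gcn4 targets 15 lower and 2 higher at an unadjusted p under 0.05. Over all genes 10.0% were then lower and 7.34% higher. In that setting NOP7, a factor of large-subunit assembly, fell (-0.30, edgeR adjusted p = 0.0302), as did ILV3, of branched-chain amino acid synthesis (-0.28, 0.0343), LYS20, of lysine synthesis (-0.31, 0.0302), and MUP3 (-0.74, 0.0302). ERG5, a sterol desaturase, rose (0.28, edgeR adjusted p = 0.0353).

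**Figure D5:**
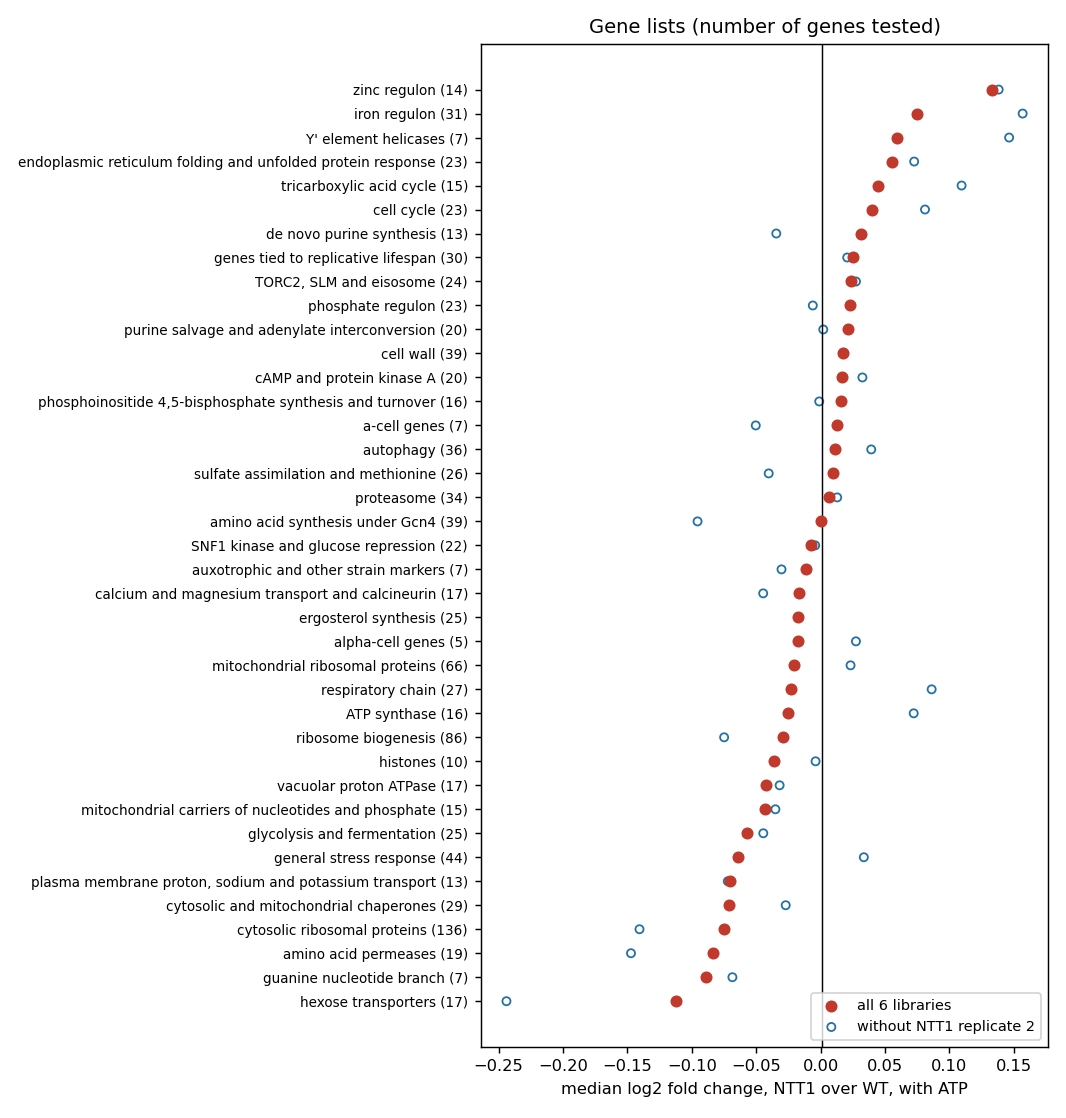
Median log2 fold change of each gene list, NTT1 with ATP over WT with ATP, with all 6 libraries and without NTT1 replicate 2. Hexose transporters, amino acid permeases and cytosolic ribosomal proteins lie below 0 in both, at -0.11, -0.08 and -0.07 with all 6 libraries. Other lists do so too, among them the guanine nucleotide branch (-0.09), the chaperones (-0.07) and proton, sodium and potassium transport (-0.07). Several lists, the general stress response (-0.06) among them, change side without NTT1 replicate 2.

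Mating type and auxotrophic markers were read as a check on the strains. STE2, the alpha-factor receptor of a cells, stood at 662, 682 and 672 CPM in NTT1 and at 658, 609.6 and 674 CPM in WT. The 7 a-cell genes summed to 1380 to 1439 CPM (here scaled to the library's own total) in NTT1 and 1243 to 1387 CPM in WT, and the 6 alpha-cell genes to 67.4 to 74.2 CPM in NTT1 and 64.2 to 69.3 CPM in WT. MATALPHA1, LEU2 and MET17 had 0 counts in all 12 libraries, and the 9 auxotrophic and other strain markers summed to 1848 to 1967 CPM in NTT1 and 1892 to 1943 CPM in WT. None of the 19 marker genes tested passed by edgeR, and 5 had an unadjusted p under 0.05, against 10.1% of all genes. The a-cell pheromone genes MFA1 and MFA2 were among them at log2 fold changes of -0.37 and -0.18, with BAR1 at 0.28, STE3, the a-factor receptor of alpha cells, at 0.22 and HO, the mating-type endonuclease, at 0.19. DESeq2 called BAR1 higher. The part of these markers in other results was not tested.

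The libraries without ATP gave 0 of 6110 genes past edgeR's threshold between the strains, with 323 at an unadjusted p under 0.05 (5.29%). The interaction gave 0 of 6157, with 365 at an unadjusted p under 0.05 (5.93%). All 3 genes that passed with ATP had the same direction without it. Of the genes at an unadjusted p under 0.05 with ATP, 362 of 614 (59.0%) had the same direction without ATP, against 3261 of 6064 genes in all (53.8%). Of the 57 genes that passed without NTT1 replicate 2, 42 (73.7%) had the same direction in the libraries without ATP.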

How the data were processed

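Messenger RNA was sequenced in 12 cultures, and the authors deposited raw counts per gene, as judged from the columns, whose whole numbers add up to unequal library totals. Per the submitters' processing notes, HISAT2 2.0.5, featureCounts 1.5.0, DESeq2 1.20.0 and genome build R64 were used, with roles, parameters and strand setting not given in the sources used here. The table holds 7127 features, of which 6023 matched RefSeq R64 by locus tag once the _ in identifiers was read as a hyphen, and the 1104 others held 0.282% of the counts. The tests were run in R 4.3.3 with edgeR 4.0.16 (filterByExpr by group, TMM, glmQLFit and glmQLFTest), with DESeq2 1.42.0 as an alternative. The main fit used the 6 libraries with ATP, since an earlier look at these data had shown more spread among the untreated WT libraries. The untreated strains were fitted alone, and ATP effects and the interaction came from all 12 libraries. CPM are TMM-scaled over 12 libraries, fitted fold changes use a prior count of 0.125, and SEs, taken from the fold change and F, are approximate. The script was tested on simulated counts. Per the labels, replicates are separate biological samples, but separate isolates are not stated. The smallest two-sided p of an exact test of 3 against 3 libraries is 0.1, so none was run. Precision at these depths is limited for genes of a few CPM. Alternatives were RLE and upper-quartile scaling, no low-count filter, the 12-library fit, DESeq2, a replicate block and each library left out.

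Members and gene lists were chosen with earlier results of these data known. Named genes are, on each side, up to 12 past the threshold with no overlap and 20 or more counts on average, those past it in the 12-library fit, the member of each list with the smallest p, the neighbours of SLM1, the strain markers, and genes of smallest p up to 6 a side. Other list members are given as values by role.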

Additional observations from a re-analysis of the deposited data

How the results depend on the processing

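The 3 calls became 16 of 6780 genes without the low-count filter (15 lower), 84 by DESeq2 (17 higher, 67 lower, 9 of which differed by 1 or more on the log2 scale) and 4 in the 12-library fit, and stayed at 3 with RLE or upper-quartile scaling. Leaving out each library in turn gave 2 to 57 genes, 1 to 12 higher and 1 to 45 lower, and 2 to 6 that differed by 1 or more on the log2 scale. The highest counts, 57 genes without NTT1 replicate 2 and 13 without WT replicate 3, were reached when those libraries were left out. All 3 genes were shared by every setting except the 4 that leave out NTT1 replicate 1 or 3 or WT replicate 1 or 2, which share 2 of them. Of the genes called by DESeq2, 35 were also called without NTT1 replicate 2. The untreated comparison, at 0 genes, gave 3 in the 12-library fit and 130 without untreated WT replicate 3.

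No pairing by replicate number was seen: deviations from the group means correlated at -0.056, 0.0044 and 0.041 for replicates 1 to 3. These correlations cannot show whether the cultures were handled in matched sets. A fit with the replicate number as a block called 33 genes, 6 higher and 27 lower.

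The sign of small differences changed when a library was left out, with log2 fold changes of -0.54 to 0.014 for MF(ALPHA)1, -0.0046 to 0.067 for CAN1, -0.15 to 0.00081 for LYS2, -0.13 to 0.038 for HIS3, -0.050 to 0.047 for AGA2, -0.074 to 0.028 for MF(ALPHA)2, -0.062 to 0.053 for TRP1 and -0.074 to 0.074 for PFK26. The causes were not tested. Counts of a few CPM limit the precision of genes such as MF(ALPHA)1.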
